A study of Mus musculus with 6 samples.

Results

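The genes described here encode the voltage-gated sodium channels, the voltage-gated calcium channels and the hyperpolarization-activated HCN channels. They were chosen by gene name alone (Scn or Hcn followed by a digit, Cacna, and Cacnb1 to Cacnb4), which gave 36 of the 55487 rows of the expression table. No measured value entered that rule, but the family was put forward with results of the same comparison already known, so its counts are a description and nothing is read from them as a test of the family. The 36 genes comprise 10 sodium channel alpha subunits, 4 sodium channel beta subunits, 10 calcium channel alpha1 subunits, 4 alpha2/delta subunits, 4 calcium channel beta subunits and 4 HCN subunits.

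RNA was measured in cells sorted from the adult mouse subventricular zone, the stem cell niche that lines the lateral ventricles and sends neuroblasts to the olfactory bulb. The knockout group was E2F1(-/-);E2F3(F/F), without a working allele of the transcription factor gene E2f1 and with both E2f3 alleles floxed, and the heterozygous group was E2F1(+/-);E2F3(F/+), with 3 libraries each. The heterozygous mice therefore also lack an E2f1 allele and carry a floxed E2f3 allele, and no wild type was analysed here. Mice of both groups carried NestinCreERT2 and R26;EYFP, on a mixed C57BL/6;Sv/129;FVB/N background, were 6 to 10 weeks old at the start, received 200 mg/kg of tamoxifen per day for 5 days and were sampled 10 days after the last dose. Nestin drives the recombinase in stem and progenitor cells, so YFP marks those cells and the progeny they made after tamoxifen, together with any other Nestin-expressing cell of the tissue. Each library pooled mice to reach at least 200000 sorted cells, and whether pools shared mice is not stated, so p-values measure only the spread between these libraries, which may be technical.

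Voltage-gated sodium channels carry the upstroke of the action potential: the alpha subunit forms the pore and the beta subunits adjust its gating and anchoring. In voltage-gated calcium channels the alpha1 subunit forms the pore and sets the current type (L, N, P/Q, R or T), while beta and alpha2/delta subunits bring the channel to the membrane. HCN channels open on hyperpolarization, carry a mixed sodium and potassium current and help to set resting potential and rhythmic firing. In the subventricular zone such channels are known from migrating neuroblasts, which become electrically active as they mature, whereas glial stem cells do not fire action potentials.

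Reads assigned to genes numbered 19798675 to 25982361 per library, and 22973 or more genes had a read in each. Correlations of log2 values between libraries were 0.909 to 0.954 within a genotype and 0.852 to 0.944 between genotypes, and knockout C correlated with heterozygous C at 0.944 but with knockout A at 0.909. Of the targeted genes, E2f1 stood at 375, 483 and 516 normalized reads (reads divided by a size factor per library) in the knockout libraries A, B and C, against 1152, 1388 and 1029.5 in heterozygous A, B and C (log2 difference -1.38 ± 0.22, limma adjusted p = 0.00559). E2f3 had 324, 231 and 245 in knockout libraries, against 293, 205 and 253 in heterozygous libraries; such whole-gene values do not check recombination of a floxed exon. The 12 neuroblast markers examined, which include Dcx, Tubb3 and Gad2, all fell in knockout libraries, where they summed to 12834.5 to 16257 normalized reads, against 72486 to 118035 in heterozygous libraries. The 6 markers of dividing cells also all fell, with sums of 2953 to 5406 in knockout libraries against 18564 to 31040 in heterozygous libraries. Of 8 tested markers of mature and striatal neurons 2 fell and 2 rose, and none of 7 oligodendrocyte or 5 microglia markers was called by limma (2 and 0 at an unadjusted p under 0.05). In bulk libraries fewer cells of a type and less RNA per cell cannot be told apart, which holds for every channel gene below.

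Across the channel genes, decreases were found in every family and no increase passed the main test. Of the 36 genes, 30 had a mean of at least 10 normalized reads and were tested, and 9 of these fell in knockout cells, of which 8 are described here: Scn1a, Scn3a, Scn3b, Cacna1b, Cacna1c, Cacna2d3, Cacnb3 and Hcn4 (limma on log2(normalized reads + 1), Benjamini-Hochberg adjusted p under 0.05 over all genes). Of all 18227 genes tested, 8.59% fell. None of the 30 channel genes rose in the main limma fit (all 6 libraries, genotype only) or in edgeR, against 7.23% of all genes in that limma fit. Among higher genes 2, Scn7a and Cacna1e, had an unadjusted p under 0.05. Of these, Scn7a was called in DESeq2, in the authors' deposited table, and by limma with a replicate block or without knockout C. The neuroblast marker sums given above moved in the same direction as the genes that fell, and their part in this result was not tested. The median log2 difference was -0.39 over the 30 channel genes and 0.05 over all tested genes. All knockout values were under all heterozygous values for 11 of the 30 genes, against 20.2% of all tested genes, and above for 1, against 18.5%. Hcn4, Scn1a and Scn2b were among the tested genes that passed the level filter only through the heterozygous libraries, with knockout means under 10. The number that fell was 4 without heterozygous A, 4 without heterozygous B and 5 without knockout B. Over all tested genes it was 581, 469 and 588 in these fits, against 1565 with all 6 libraries, so the calls dropped across the whole data. Cacna1b and Cacnb3 stayed called under all 15 alternatives and Scn1a under the 14 that tested it, while Scn3a, Scn3b, Cacna1c, Cacna2d3 and Hcn4 each lost the call under at least 1.

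**Figure D1:**
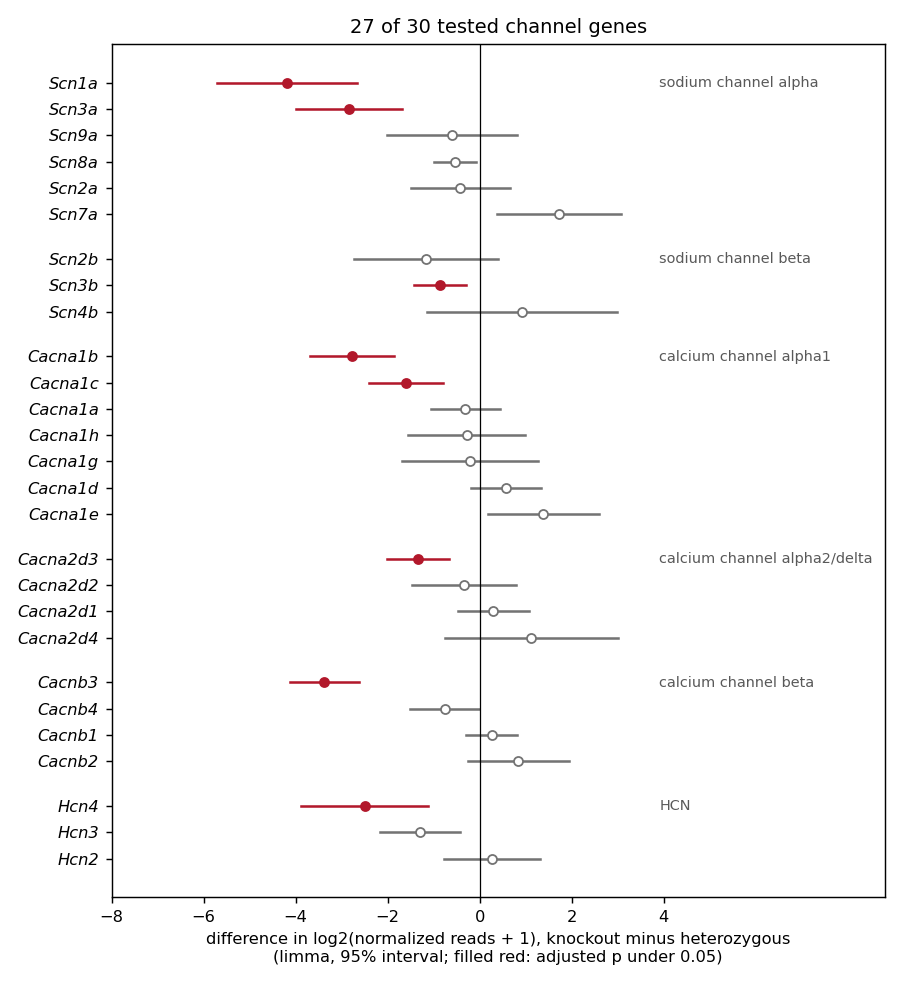
Difference in log2(normalized reads + 1) between knockout and heterozygous libraries (x axis, n = 3 each) for 27 of the 30 tested channel genes (rows), by family; bars are limma 95% intervals and filled red points mark adjusted p under 0.05. The 8 red genes lie left of 0, from -0.87 for Scn3b to -4.19 for Scn1a, while Scn7a (1.71) and Cacna1e (1.38) lie furthest right.

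Among sodium channel alpha subunits, Scn1a and Scn3a fell and Scn8a, Scn2a, Scn9a and Scn7a were not called. Scn3a, the type III subunit known for its expression in the embryonic and neonatal brain, had 61.4, 50.8 and 224.6 normalized reads in the knockout libraries A, B and C, against 837, 621 and 513 in heterozygous A, B and C. All knockout libraries were lower, but knockout C lay well above the other two. The log2 difference was -2.84 ± 0.52 (SE, limma adjusted p = 0.00958); the call was lost without heterozygous A (adjusted p = 0.0524) or heterozygous B (adjusted p = 0.063). Scn1a, the type I subunit, best known from inhibitory interneurons, had 4.39, 0.89 and 3.04 normalized reads in knockout libraries, against 62.5, 56.8 and 67.0 in heterozygous libraries. The groups were far apart and the heterozygous libraries lay close together. The knockout values rest on 8 reads in all against 187. Scaled by the total of reads in genes of each group, this was a ratio of 23.1 (95% counting interval 11.5 to 54.3). The log2 difference was -4.19 ± 0.68 (adjusted p = 0.00566).

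Scn8a, the type VIII subunit that drives firing at the axon initial segment of mature neurons, had 585, 563 and 474 normalized reads in knockout libraries, against 870, 713 and 769 in heterozygous libraries. Its groups did not overlap, yet it was not called (log2 difference -0.54, 95% interval -1.001 to -0.07, adjusted p = 0.104). Scn2a, the type II subunit of immature axons, had 142, 58.8 and 49.6 in knockout libraries, against 126, 74.5 and 107 in heterozygous libraries, with overlapping groups and an interval of -1.49 to 0.65. Scn7a encodes an atypical family member that senses extracellular sodium in glia of the brain's sensory circumventricular organs. It had 497, 569.9 and 187 normalized reads in the knockout libraries A, B and C, against 265, 105 and 53.0 in heterozygous A, B and C, so knockout C lay below heterozygous A. The log2 difference of 1.71 ± 0.60 was not called (adjusted p = 0.0795), but was called without knockout C (2.21, adjusted p = 0.0138) and in the authors' deposited table (1.57, adjusted p = 0.0163). The 6 ependymal markers, of which 5 rose, summed to 52506, 31644 and 11490.1 normalized reads in the knockout libraries A, B and C, against 8032 to 9188 in heterozygous libraries. The 8 markers of astrocytes and quiescent stem cells, of which 2 rose, summed to 223819.9, 382219 and 410208 in knockout A, B and C, against 180313 to 281533 in heterozygous libraries. Their part in the Scn7a values was not tested.

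**Figure D2:**
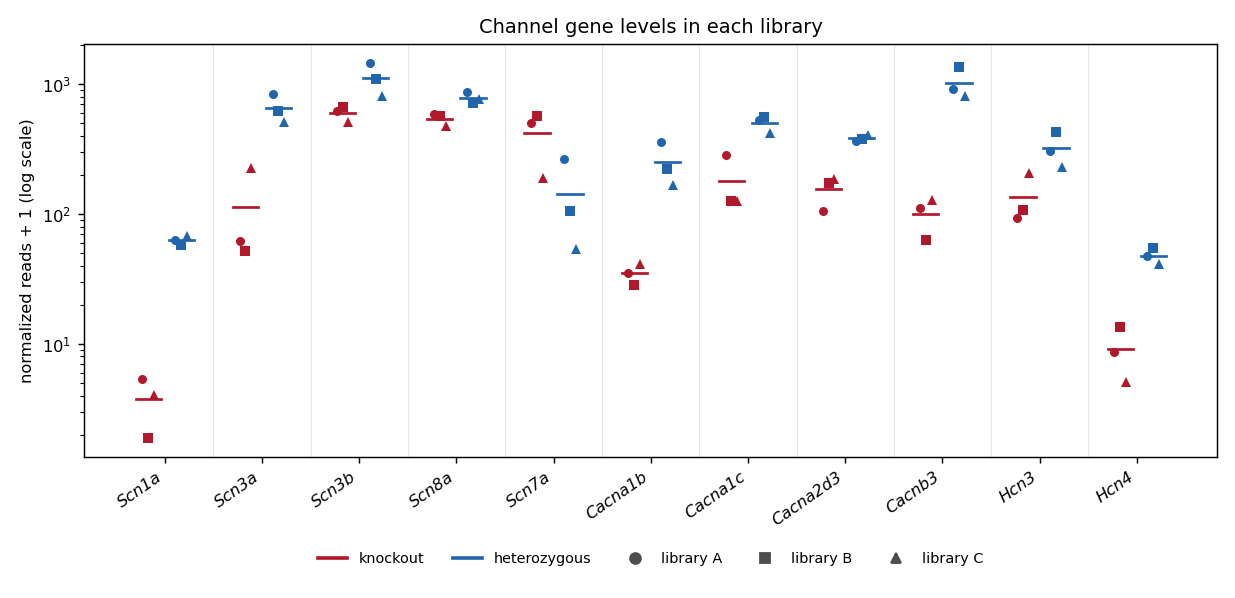
Normalized reads + 1 (log axis) of 11 channel genes in each library, knockout in red and heterozygous in blue, with the library letter as the marker shape and the group mean as a bar. Scn1a stands below 5 normalized reads in every knockout library, and Scn7a is the gene whose knockout mean (418) lies above its heterozygous mean (141).

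Several of these genes are neighbours. On GRCm38 chromosome 2, Scn3a (65457118 to 65567627, minus strand), Scn2a (65620771 to 65767447, plus strand), Scn1a (66270778 to 66440840, minus), Scn9a (66480080 to 66634962, minus) and Scn7a (66673425 to 66784914, minus) lie within 1327.8 kb. Along this cluster the log2 differences were -2.84, -0.42, -4.19, -0.60 and 1.71 in that order. Scn3a and Scn2a are 53.1 kb apart, and Scn1a and Scn9a 39.2 kb. The 2 genes that fell thus sat beside 3 that were not called; 4 of the 5 differences were below 0, and that of Scn7a was above 0. Scn9a, a subunit of peripheral sensory neurons, stood at only 9.87 to 23.2 normalized reads in knockout libraries and 17.0 to 40.4 in heterozygous libraries.

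**Figure D3:**
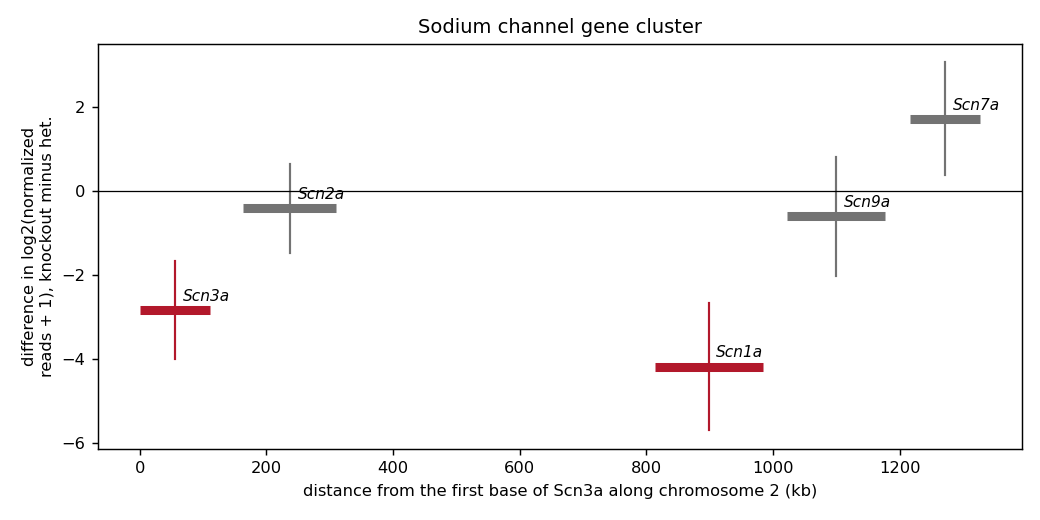
The 5 sodium channel genes of the chromosome 2 cluster, each drawn as a thick bar over its length (x axis, distance in kb from the first base of Scn3a) at the height of its log2 difference, knockout minus heterozygous (y axis), with the limma 95% interval as a thin line. Scn3a and Scn1a (red, called) lie below 0, while Scn2a and Scn9a lie near it and Scn7a above it.

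Among sodium channel beta subunits, Scn3b was by far the most abundant in both groups. It had 619, 661 and 513 normalized reads in knockout libraries, against 1459, 1084 and 808 in heterozygous libraries. The groups did not overlap, though knockout B and heterozygous C were only modestly apart. The log2 difference was -0.87 ± 0.25 (adjusted p = 0.0457), the weakest of the calls. It was lost without knockout A, B or C (adjusted p = 0.0671, 0.118 and 0.0696), without heterozygous A or B (0.149 and 0.133), with upper-quartile scaling in edgeR (0.0552) and with no level filter (0.0599). Scn2b and Scn4b had group means of 8.49 to 22.6 normalized reads and were not called. Per kb of exon, Scn3b made up 83.4 to 89.8% of beta subunit reads in knockout libraries and 89.7 to 95.1% in heterozygous libraries.

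Among the calcium channel alpha1 subunits, the N-type and an L-type gene fell. Cacna1b (chromosome 2, 24603887 to 24763152, minus strand), the N-type pore of presynaptic terminals that also acts in neuronal migration, had 34.0, 27.6 and 40.5 normalized reads in knockout libraries, against 358, 221 and 166 in heterozygous libraries. The knockout libraries were low and close together, with a log2 difference of -2.78 ± 0.41 (adjusted p = 0.00375). Cacna1c (chromosome 6, 118587240 to 119196418, minus strand), the L-type pore of heart, smooth muscle and neurons, had 284, 124 and 124 in knockout A, B and C, against 530, 555 and 423 in heterozygous libraries. Knockout A was higher than the other two but still below every heterozygous library, and the log2 difference was -1.60 ± 0.36 (adjusted p = 0.0197). The call was lost without knockout B (adjusted p = 0.0848), heterozygous A (0.0769) or heterozygous B (0.0954). The 8 endothelial and mural markers, of which 1 rose, summed to 41841, 28560.1 and 12836 in knockout A, B and C, against 9945 to 17324 in heterozygous libraries; their part in the Cacna1c values was not tested.

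The other alpha1 genes were not called. Cacna1d, the L-type subunit that opens at more negative voltages, had 421, 410 and 271 normalized reads in knockout libraries, against 326, 155 and 279 in heterozygous libraries. These groups overlapped, and the interval of the log2 difference ran from -0.19 to 1.34. Cacna1e, the R-type subunit, had 127, 65.0 and 54.6 in knockout libraries, against 29.3, 45.1 and 18.0 in heterozygous libraries. It was the only tested channel gene with every knockout library above every heterozygous library, at a log2 difference of 1.38 ± 0.53 (adjusted p = 0.104). Cacna1a, the P/Q-type subunit of fast transmitter release, had 169, 104 and 143 in knockout libraries and 205, 134 and 177 in heterozygous libraries (interval -1.06 to 0.43). The T-type genes Cacna1g and Cacna1h, which open at low voltage, had log2 differences of -0.22 and -0.29, with intervals of -1.69 to 1.26 and -1.56 to 0.99.

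Auxiliary calcium channel subunits held the largest loss in absolute reads. Cacnb3 (ENSMUSG00000003352, chromosome 15, 98630840 to 98644529, plus strand), a beta subunit that traffics N-type and other neuronal channels, had 110, 62.3 and 126 normalized reads in knockout libraries, against 914, 1350.2 and 808 in heterozygous libraries. No knockout library came near a heterozygous library. The mean was 99.5 ± 33.3 in knockout libraries and 1024 ± 288 in heterozygous libraries (SD, n = 3 each), a log2 difference of -3.38 ± 0.34 and a 10.4-fold decrease (adjusted p = 0.000969). No other beta gene was called. Cacnb1, best known from skeletal muscle, had 490.3, 422 and 489 in knockout libraries, against 481, 308 and 396 in heterozygous libraries (interval -0.29 to 0.82). Cacnb2, the main beta subunit of heart, had 363, 333 and 169.999 in knockout libraries, against 270.4, 75.4 and 175 in heterozygous libraries (interval -0.26 to 1.93).

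Cacnb4, a brain beta subunit, had 329, 151 and 159.9 in knockout A, B and C, against 344, 357 and 319 in heterozygous libraries. Knockout A alone overlapped the heterozygous range; the log2 difference of -0.76 was not called (adjusted p = 0.147), but was without knockout A (-1.12, adjusted p = 0.034). Of its exon bases, 16.0% are also covered by the opposite-strand gene A430018G15Rik, whose reads cannot be told apart without strand. Cacna2d3 (chromosome 14, 28904943 to 29721864, minus strand), the alpha2/delta subunit of brain, had 104, 173 and 186 in knockout libraries, against 366, 376 and 404 in heterozygous libraries. The heterozygous libraries were nearly level and all knockout libraries lay well below them, at a log2 difference of -1.35 ± 0.30 (adjusted p = 0.0201). This call was lost without knockout B (adjusted p = 0.0636) or heterozygous A, B or C (0.0697, 0.0776 and 0.0518). Cacna2d1, the alpha2/delta subunit bound by gabapentin, had 246, 288 and 426 in knockout libraries, against 256, 174 and 364 in heterozygous libraries, with overlap and an interval of -0.48 to 1.07.

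Among the HCN genes described here, Hcn4 fell, Hcn3 just missed the threshold and Hcn2 was not called. Hcn4 (chromosome 9, 58823412 to 58863175, plus strand), the slow subunit of the cardiac pacemaker that also occurs in thalamus, had 7.68, 12.5 and 4.05 normalized reads in knockout libraries, against 46.4, 53.9 and 40.0 in heterozygous libraries. The groups were well apart, at a log2 difference of -2.50 ± 0.62 (adjusted p = 0.0274). The call was lost without knockout B (adjusted p = 0.0654) or heterozygous A, B or C (0.0893, 0.106 and 0.0596), and with no level filter (0.0508).

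Hcn3, a subunit little affected by cAMP, had 92.1, 106 and 205 normalized reads in the knockout libraries A, B and C, against 304, 430.2 and 230 in heterozygous A, B and C. Knockout C came close to heterozygous C. The log2 difference of -1.29 ± 0.39 just missed the threshold (adjusted p = 0.0501); it was called without knockout C (adjusted p = 0.00866), in DESeq2 (0.0129), in the authors' deposited table (0.0104), with 5 added before the logarithm (0.0498) and among genes with a mean of at least 50 (0.0419). The opposite-strand gene Pklr covers 17.1% of Hcn3 exon bases. Hcn2, the strongly cAMP-sensitive subunit, had 122, 102 and 60.7 in knockout libraries, against 119, 73.5 and 49.0 in heterozygous libraries, with an interval of -0.77 to 1.30.

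Levels were set side by side between genes as normalized reads per kb of exon. In heterozygous libraries the highest were Cacnb3 (255 ± 71.7) and Scn3b (204 ± 59.9), which did not differ beyond their spread, followed by Cacnb1 (87.2 ± 19.2), Hcn3 (77.3 ± 24.4), Scn3a (52.7 ± 13.3) and Scn8a (49.7 ± 5.03; SD, n = 3). In knockout libraries the highest were Scn3b (109 ± 13.9) and Cacnb1 (103 ± 8.60), also within their spread, then Scn7a (57.0 ± 27.7), Scn8a (34.3 ± 3.73) and Hcn3 (32.4 ± 14.9). The make-up within families shifted accordingly. Cacnb3 held 10.3 to 18.5% of calcium channel beta reads per kb in knockout libraries, against 58.0 to 74.8% in heterozygous libraries, while Cacnb1 held 54.2 to 63.4% against 15.1 to 27.0%. The summed level of the 4 beta genes per kb was 174 ± 24.7 in knockout libraries and 394 ± 56.3 in heterozygous libraries.

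Among sodium channel alpha genes, Scn3a held 3.95, 3.22 and 22.3% of reads per kb in knockout A, B and C, against 35.5 to 40.0% in heterozygous libraries. Scn7a held 54.3, 61.3 and 31.6% in knockout libraries, against 6.23 to 20.02% in heterozygous libraries, and Scn8a 28.2 to 37.2% against 30.5 to 42.1%. Among alpha1 genes, Cacna1b held 3.80 to 7.18% in knockout libraries, against 19.0 to 30.7%, and Cacna1d 37.1 to 52.6% against 13.5 to 25.2%. A share rises when another member falls, so the shares of Cacnb1, Cacna1d and Scn7a do not show that those genes rose. No test was run on the shares.

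**Figure D4:**
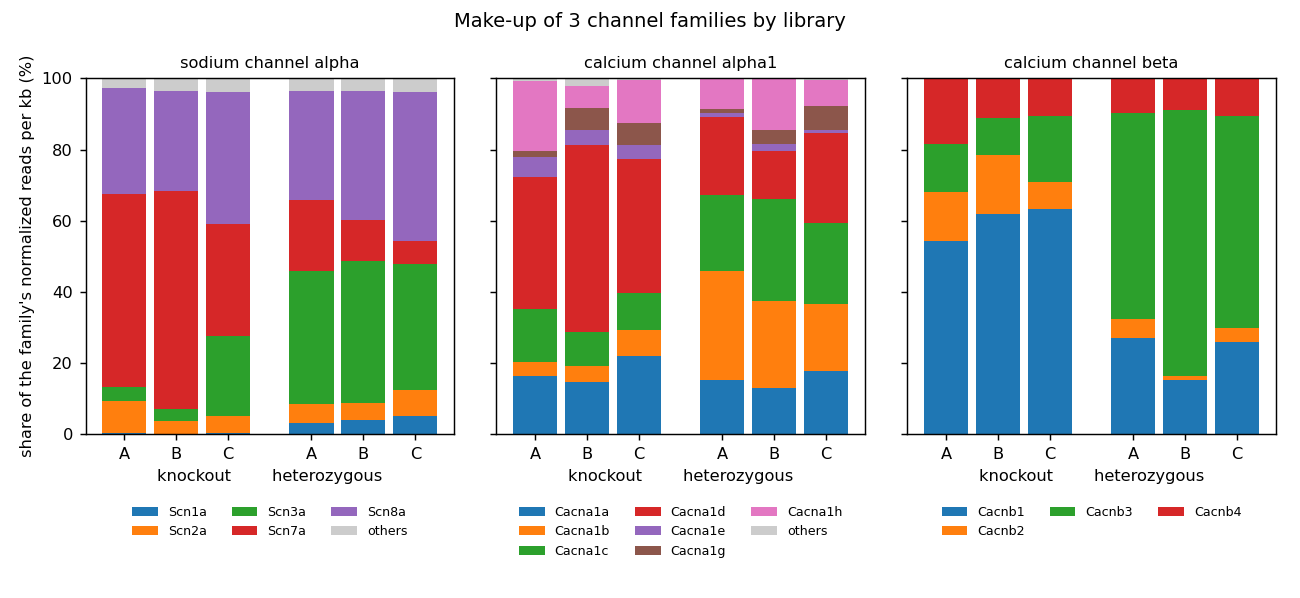
Share of each gene (colour) in its family's normalized reads per kb of exon (y axis, %, from 0 to 100), for libraries A, B and C of the knockout (left) and heterozygous (right) groups; genes under 2% in every library, and genes not described here, are pooled as others. The Cacnb3 share is 10.3 to 18.5% in knockout libraries and 58.0 to 74.8% in heterozygous libraries.

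Promoter windows from RefSeq (GRCm38.p6, 250 bases before to 50 after a start) were matched for 26 of the 36 genes, 36 windows in all. Windows of Cacna1a, Cacna1g, Cacna1h, Cacna2d4, Hcn3, Scn3a and Scn3b were not used here. The windows of 4 genes that fell are shown with that of Scn7a, which was not called, as examples that do not stand for all windows. Capitals mark every CG dinucleotide, the site of DNA methylation in mammals.
Cacnb3 promoter (chr15:98634517-98634816, plus strand): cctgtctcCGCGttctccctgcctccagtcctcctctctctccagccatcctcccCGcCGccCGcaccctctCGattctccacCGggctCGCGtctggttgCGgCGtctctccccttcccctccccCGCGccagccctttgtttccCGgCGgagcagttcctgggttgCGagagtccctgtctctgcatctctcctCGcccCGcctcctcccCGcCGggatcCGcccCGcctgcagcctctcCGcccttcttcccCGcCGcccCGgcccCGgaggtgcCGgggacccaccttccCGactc
Cacna1b promoter (chr2:24763103-24763402, minus strand): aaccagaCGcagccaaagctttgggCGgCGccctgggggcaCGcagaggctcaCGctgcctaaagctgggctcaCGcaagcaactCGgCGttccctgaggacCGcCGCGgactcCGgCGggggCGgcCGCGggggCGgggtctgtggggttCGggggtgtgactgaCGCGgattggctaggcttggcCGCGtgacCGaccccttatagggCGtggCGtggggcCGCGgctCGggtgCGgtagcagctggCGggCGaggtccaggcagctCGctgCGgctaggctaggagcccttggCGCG
Hcn4 promoter (chr9:58822699-58822998, plus strand): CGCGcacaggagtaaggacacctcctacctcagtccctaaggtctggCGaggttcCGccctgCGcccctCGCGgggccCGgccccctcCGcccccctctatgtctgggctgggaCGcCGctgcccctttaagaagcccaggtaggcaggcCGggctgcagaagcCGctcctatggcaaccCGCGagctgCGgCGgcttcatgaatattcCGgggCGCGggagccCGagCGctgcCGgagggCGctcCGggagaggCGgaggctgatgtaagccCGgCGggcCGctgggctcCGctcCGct
Scn1a promoter (chr2:66440788-66441087, minus strand): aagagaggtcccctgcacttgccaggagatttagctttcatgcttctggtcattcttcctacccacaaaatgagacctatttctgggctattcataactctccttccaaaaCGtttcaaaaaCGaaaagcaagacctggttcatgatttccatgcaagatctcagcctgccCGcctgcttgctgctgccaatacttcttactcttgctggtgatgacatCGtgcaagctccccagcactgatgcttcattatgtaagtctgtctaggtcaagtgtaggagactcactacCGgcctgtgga
Scn7a promoter (chr2:66784861-66785160, minus strand): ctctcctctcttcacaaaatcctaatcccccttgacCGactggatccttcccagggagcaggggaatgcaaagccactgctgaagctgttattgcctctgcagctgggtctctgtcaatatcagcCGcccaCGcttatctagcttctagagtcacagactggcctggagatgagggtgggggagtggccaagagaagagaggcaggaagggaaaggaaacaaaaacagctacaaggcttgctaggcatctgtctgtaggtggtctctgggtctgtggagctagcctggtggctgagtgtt
The first 3 windows held 29, 35 and 31 CG dinucleotides and were 72.0, 72.3 and 71.7% G and C. Those of Scn1a and Scn7a held 5 and 3 and were 47.3 and 54.0% G and C. The sodium channel pair thus lacked the dense CG content of the other 3, although Scn1a fell and Scn7a was not called. A further Cacnb3 window (chr15:98632078-98632377) held 7. Windows not shown varied in both kinds. Of genes that fell, that of Cacna2d3 held 41 and those of Cacna1c 7, 57 and 3. Of genes not called, that of Cacna2d1 held 42, those of Scn8a 38 and 12, and those of Scn2a 3 and 9. The median was 11 over the 36 windows and 7 over all 32851 windows.

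The windows were searched on both strands for the E2F core letters TTTCCCGC, TTTCGCGC, TTTGCCGC and TTTGGCGC, and for both parts of the REST site; the channel gene windows held a single match in all, so no matches overlapped. None of the 36 windows held any of the E2F letters, against 2.26% of all windows. For the repressor REST, which silences neuronal channel genes in other cells, the left part TTCAGCACC was in 0 of the 36 windows and 0.37% of all. The right part GGACAGC was in 1 (Cacnb1) and 6.56% of all. These counts say only which letters are in these windows.

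Genes for proteins that bind or accompany the channels were examined as a list of 54 names, of which 53 were found in the data and 49 were tested. Of the 49, 8 fell and 5 rose, with a median log2 difference of 0.31 against 0.05 over all tested genes. Of all tested genes 8.59% fell and 7.23% rose, so the partner list and its parts are given as a description and nothing particular to them is read from the counts. The number that fell was 1 without knockout B, heterozygous A or heterozygous B, 4 without knockout A or heterozygous C and 5 with no level filter. The number that rose was 0 without knockout B and 1 without heterozygous A or B, against 8 in DESeq2 and 9 in the authors' deposited table. Over all tested genes, 588, 581 and 469 fell without knockout B, heterozygous A and heterozygous B, against 1565 in the main limma fit. In the same fits 109, 325 and 166 rose, against 1318 in the main limma fit, 2273 in DESeq2 and 2354 in the authors' deposited table. Of 17 tested calcium channel partners 5 fell and none rose in the main limma fit, edgeR or DESeq2, although 2 higher genes had an unadjusted p under 0.05. Increases among them were called by limma with the replicate block, without heterozygous C and without knockout C. The 5 that fell were Rims1, which tethers channels at the release site, Rem2, a GTPase that inhibits high-voltage-activated channels, and the gamma subunit genes Cacng2, Cacng4 and Cacng5. Most products of the gamma subunit genes serve AMPA receptors. Rem2 had 136, 81.9 and 95.1 normalized reads in knockout libraries, against 485, 385 and 433 in heterozygous libraries. Of the 13 partner genes called, it alone stayed called whichever library was left out (log2 difference -2.07 ± 0.30, adjusted p = 0.00349). Rims1 had 3.29, 16.0 and 40.5 in knockout libraries, against 125, 111 and 158 in heterozygous libraries (-3.18 ± 0.76, adjusted p = 0.0245). Cacng5 had 680.1, 1396 and 2162 in knockout libraries, against 3906, 4818 and 2428 in heterozygous libraries, so knockout C came close to heterozygous C. Cacng2 had 6.58, 12.5 and 15.2 in knockout libraries, against 47.4, 71.5 and 42.0 in heterozygous libraries (-2.17 ± 0.57, adjusted p = 0.0342).

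Of the 4 genes of the sodium leak channel complex, Unc79 and Fam155a fell, while the pore gene Nalcn was not called (log2 difference 0.43, adjusted p = 0.424). Unc79 had 218, 144 and 201 normalized reads in knockout libraries, against 499, 458 and 464 in heterozygous libraries. Among 10 sodium channel partners Nedd4l, a ubiquitin ligase that removes sodium channels from the membrane, fell (-0.82 ± 0.22, adjusted p = 0.0338). Ank3, the ankyrin that gathers sodium channels at the axon initial segment, averaged 372 in knockout libraries and 631 in heterozygous libraries and was not called by limma (adjusted p = 0.0588). It was called lower in DESeq2, in the authors' deposited table and among genes with a mean of at least 50.

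The gene for the main brain HCN auxiliary subunit and 3 genes of intracellular or store-operated calcium channels moved the other way. Of 5 tested HCN partners 1 rose in the main limma fit, and another was called higher in DESeq2, in the authors' deposited table and with the replicate block. Of the 5, 0 fell by limma, edgeR or DESeq2 or had a lower value at an unadjusted p under 0.05. Pex5l, which encodes the auxiliary subunit, had 673.5, 387 and 274 normalized reads in the knockout libraries A, B and C, against 157, 70.5 and 151 in heterozygous libraries, and rose (log2 difference 1.80 ± 0.43, adjusted p = 0.0242). Its knockout order was that of the ependymal sums and also of the endothelial and mural sums given above. The microglia sums (5697, 1222.5 and 1130) and the mature and striatal neuron sums (3696.5, 3589 and 3287) had the same knockout order. Its heterozygous order was that of none of these lists, with 9188, 8406 and 8032 for ependymal markers in heterozygous A, B and C. The endothelial and mural sums there were 9945, 11035 and 17324. Microglia markers summed to 920, 1380 and 3337 there, and mature and striatal neuron markers to 1717, 1926 and 1806. A part of those cells in the Pex5l values was not tested. Of 13 tested genes of intracellular and store-operated calcium channels 3 rose in the main limma fit. Others of the 13 were also called higher in edgeR with upper-quartile factors, in DESeq2 and in the authors' deposited table. Of the 13, 0 fell by limma, edgeR or DESeq2 or had a lower value at an unadjusted p under 0.05. Itpr2, the inositol trisphosphate receptor of glia, had 1732, 1706 and 1683 in knockout libraries, against 557, 281 and 997 in heterozygous libraries (1.66 ± 0.38, adjusted p = 0.0222). The knockout libraries were level and the heterozygous libraries spread widely. Orai3, a store-operated channel, rose by 1.11 ± 0.20 (adjusted p = 0.00836) and Tpcn1, an endolysosomal channel, by 0.81 ± 0.22 (adjusted p = 0.0367).

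The remaining channel genes were at low levels. Besides Cacna1e, 11 tested genes with a mean under 100 normalized reads were not called, with log2 differences of -1.18 to 1.12 and adjusted p of 0.263 to 0.842, and the groups overlapped for each. Intervals this wide do not show equal levels. Below the filter, Scn10a, a subunit of pain-sensing neurons, had no read in any library. Scn11a of sensory neurons, Scn4a and Cacna1s of skeletal muscle, Cacna1f of the retina and Cacna1i of the thalamus had means of at most 2.80 normalized reads.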

How the data were processed

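RNA was sequenced from 6 pools of sorted cells after SMART-Seq v4 cDNA synthesis. HISAT2, featureCounts from Subread and DESeq2 on GRCm38 are named in the submitters' processing notes, and versions, strand settings and the treatment of reads matching several paralogs are not given in the sources used here. Each deposited library column holds a normalized signal: read counts per gene that the authors divided by 1 size factor per library; 100% of values above 0 were whole multiples of a step within 0.001 reads, so reads were recovered. The authors' deposited log2 fold change compares knockout with heterozygous libraries. The authors' Wald statistic and test weight are scores, and the deposited p-value has an adjusted form, per the file headers. Whether the weights entered the adjustment is not stated in the headers.

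The channel genes, partner and marker lists and tests were chosen with earlier results of these data known. The main test was limma 3.58.1 with a mean-variance trend (R 4.3.3) on log2(value + 1) for 18227 genes with a mean of at least 10, two-sided, with no covariate beside genotype and p-values adjusted over all of them by Benjamini-Hochberg at 0.05; fold changes on this scale understate those of low genes. It was tested on simulated data. Alternatives were edgeR 4.0.16 with TMM or upper-quartile factors and DESeq2 1.42.0 on the recovered reads, the authors' table, added constants of 0.5 and 5, no filter or a mean of 50, a replicate block, and leaving out 1 library at a time. Libraries of a group differed beyond sampling noise (chi-square over its degrees of freedom 46.9 or more), so none was counted as a repeat of another. This does not show that they came from separate mice. Named were the channel genes called or with a mean of at least 100, partner genes called (up to 4 per list by p), and E2f1 and E2f3. Cacng4, Ank3, Nalcn, Cacna1e, Scn2a, Scn9a, Hcn2, Cacna1g and Cacna1h were named after their values were seen. Exon lengths are unions over transcripts in GENCODE M21. Intervals on reads are exact binomial (95%) and cover counting error only. Some genes that enter the counts are not reported here by name.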

Additional observations from a re-analysis of the deposited data

How the results depend on the processing

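The 9 channel genes that fell had a negative log2 difference under every alternative that tested them. Their number was 7 to 10 in the alternatives that kept all 6 libraries and 4 to 9 when 1 library was left out. The number of channel genes that rose was 1 in DESeq2, in the authors' deposited table and with the replicate block, each time Scn7a, and 0 to 1 when 1 library was left out. Partner genes that fell numbered 5 with no level filter, 5 with the replicate block and 1 to 9 when 1 library was left out. Partner genes that rose numbered 8 in DESeq2, 9 in the authors' deposited table and 0 to 5 when 1 library was left out. Over all tested genes, 469 to 2063 fell and 109 to 1956 rose when 1 library was left out, against 1565 and 1318 in the main limma fit. The cause of these changes in number was not tested, although a fit with 5 libraries has fewer samples. Same-letter libraries had correlations of deviations from their group means of -0.07, 0.02 and -0.10, against -0.087 to 0.161 for different letters. Such values over all genes show no broad pairing by letter, but cannot exclude one in some genes. The neuron marker Sst was high only in knockout C (185) and heterozygous C (260), with at most 1.96 elsewhere. The oligodendrocyte lineage marker Pdgfra had 1851 and 2971 there, against 129 to 252 elsewhere. Cspg4 of that lineage was highest in heterozygous C (1034.5) but not in knockout C (567). Whether same-letter pools shared a batch was not tested. With the letters as a replicate block 8 channel genes fell, and Scn3b did not pass (adjusted p = 0.0597). Depth limits Scn1a, which rests on 8 knockout reads; Scn1a and Hcn4 were not tested at a mean of at least 50.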
